A study of Sus scrofa with 6 samples.

Results

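Glycolysis is the chain of reactions that splits glucose into pyruvate in the cytosol. The enzymes described here act in its lower part: aldolase A (ALDOA) and triosephosphate isomerase (TPI1) form and interconvert the triose phosphates, glyceraldehyde-3-phosphate dehydrogenase (GAPDH) and phosphoglycerate kinase 1 (PGK1) carry out the first step that yields ATP, alpha-enolase (ENO1) and pyruvate kinase (PKM) the last, and lactate dehydrogenase A (LDHA) turns pyruvate into lactate. Early embryos and many other rapidly growing tissues use this pathway heavily, also where oxygen is present, and several of its genes are targets of hypoxia-inducible factor. The 7 enzymes were looked up in the protein and KEGG descriptions of a table of 20523 pig transcript rows, and the row with the most reads was kept for each gene. Rows were found for 6 of the 7. No row was found for ALDOA by this rule, and it is not analysed here.

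The messenger RNA of whole Large White pig embryos was sequenced at 17.5 to 18.0 days post coitum. The 3 QQ embryos carried 2 quantitative trait nucleotides (QTNs) of VRTN, a gene tied to the number of thoracic vertebrae, on both chromosomes. The 3 WT embryos were wild type at these positions (qq). Genotypes were read from extra-embryonic tissue, and the labels name no litter, dam or sex, so a p-value here covers no more than the spread among 6 single embryos.

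Library totals, in units of 1000000 uniquely mapped reads, were 12.2 to 13.5 in the QQ and 12.5 to 13.4 in the WT group. WT replicate 3 stood apart from the others: on the first principal component, with 57.7% of the variance, it lay at -61.7, against 10.95 to 29.99 for the QQ libraries and -9.13 and 1.00 for the other WT libraries.

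The 6 glycolysis enzymes had lower mean values in QQ than in WT embryos, except that LDHA and ENO1 were higher after quantile normalization and LDHA and PGK1 without QQ replicate 3. None of these differences passed the test. GAPDH had the largest difference, with a fold of 0.714 in QQ over WT, and LDHA and PGK1 the smallest in the edgeR fit. The median log2 fold change over the 6 enzymes was -0.27, against -0.0027 over the 13957 rows tested, of which 50.3% had lower values in QQ. After quantile normalization these medians were closer together, at -0.095 for the enzymes and -0.043 for all rows. With edgeR's quasi-likelihood test and Benjamini-Hochberg adjustment over all rows, 0 of the 6 enzymes were called, where the share called over all rows was 0.0%. At an unadjusted p under 0.05, 1 enzyme (GAPDH) was lower, where 9.29% of all rows were lower and 20.3% differed in either direction. DESeq2 also called 0 of the 6, against 0.795% of all rows. In no enzyme did all QQ libraries lie below all WT libraries, which was the case in 9.07% of all rows. In whole embryos, fewer cells of a type and less RNA per cell cannot be told apart. Among the 596 rows with at least 20000 reads, a cutoff chosen after seeing the data, 71.1% had lower values in QQ, with a median of -0.15. All QQ libraries lay below all WT libraries in 146 of these 596 rows, and 154 were lower at an unadjusted edgeR p under 0.05. All enzymes but PGK1 belong to these well-covered rows.

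TPI1 interconverts the triose phosphates so that both products of aldolase can go on through the pathway. Its 1267 bp row held 20717 reads over the 6 libraries, and 42.86% of its length was covered in each of them. TPI1 had 245, 172 and 155 RPKM (reads scaled to the transcript's length and the library's total) in QQ replicates 1 to 3, against 243, 206 and 247 RPKM in WT replicates 1 to 3. QQ replicates 2 and 3 lay below all WT libraries, and QQ replicate 1 lay between WT replicates 1 and 3. The means were 190.3 ± 47.9 RPKM in QQ and 232 ± 22.6 RPKM in WT embryos (SD, n = 3 each). The log2 fold change was -0.37 ± 0.19 (SE), with an edgeR adjusted p of 0.282 and an exact two-sided permutation p of 0.3, and 3 libraries a group cannot give an exact p below 0.1.

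GAPDH oxidises glyceraldehyde-3-phosphate and makes NADH, and is often used as a reference gene. By mean RPKM its row was number 7 of the 20523 in the table. It is a fragment of 534 bp whose best protein match is a partial GAPDH-like protein of platypus. Reads covered 99.81% of it in every library. GAPDH had 4806, 3711 and 3427 RPKM in QQ replicates 1 to 3, against 4975, 4634 and 6083 RPKM in WT replicates 1 to 3. QQ replicates 2 and 3 were the lowest of all libraries, QQ replicate 1 lay between WT replicates 1 and 2, and WT replicate 3 was the highest. The means were 3981 ± 728 RPKM in QQ and 5231 ± 757 RPKM in WT embryos, a log2 fold change of -0.49 ± 0.18 (SE). The edgeR p was 0.0237 before and 0.233 after adjustment, DESeq2 gave an adjusted p of 0.138, and the exact permutation p was 0.2. The log2 fold change was -0.34 without WT replicate 3 and -0.19 after quantile normalization.

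PGK1, which makes the first ATP of the lower pathway, could be followed only with low precision. Its 1640 bp row, matched to the structure of pig muscle phosphoglycerate kinase, was covered over 5.98% of its length and held 149 reads. There were 30, 26 and 17 reads in QQ replicates 1 to 3, against 25, 28 and 23 reads in WT replicates 1 to 3, and the groups overlapped. On the RPKM scale these are 1.36, 1.26 and 0.849 in QQ and 1.22, 1.33 and 1.04 in WT embryos. The log2 fold change was -0.14 ± 0.28 (SE), with an edgeR adjusted p of 0.788 and an exact permutation p of 0.9. PGK1 was named in 5 further rows of 3 to 105 reads, and with all its rows summed the log2 fold change was -0.24 (edgeR adjusted p = 0.637). A 460 bp row described only as phosphoglycerate kinase-like held 65, 31 and 45 reads in QQ and 54, 88 and 69 reads in WT replicates 1 to 3, a log2 fold change of -0.65 ± 0.30 (edgeR adjusted p = 0.254). Reads of near-identical copies can be split or lost when only unique placements are kept, so the level of PGK1 in these embryos is uncertain. In human, GAPDH and LDHA also have processed pseudogenes of this kind.

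ENO1 makes phosphoenolpyruvate, the substrate of pyruvate kinase. ENO1 had 2116, 1509 and 1339 RPKM in QQ replicates 1 to 3, against 1991, 1679 and 1767 RPKM in WT replicates 1 to 3. QQ replicate 1 was the highest of all 6 libraries and QQ replicates 2 and 3 the lowest. The means were 1654 ± 409 RPKM in QQ and 1812 ± 161 RPKM in WT embryos. The log2 fold change of ENO1 was -0.22 ± 0.19 (SE), with an edgeR adjusted p of 0.493 and an exact permutation p of 0.5.

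PKM makes pyruvate and the last ATP of the pathway. It had the most reads of the 6 enzymes, 342266, on a row of 2322 bp in which the M1 and M2 splice forms cannot be separated. PKM had 2036, 1675 and 1534 RPKM in QQ replicates 1 to 3, against 2146, 1906 and 2145 RPKM in WT replicates 1 to 3. QQ replicates 2 and 3 were the lowest of all libraries, and the groups overlapped through QQ replicate 1 alone, which lay above WT replicate 2. The means were 1749 ± 259 RPKM in QQ and 2066 ± 139 RPKM in WT embryos, a log2 fold change of -0.33 ± 0.15 (SE), with an edgeR adjusted p of 0.247 and an exact permutation p of 0.2. After quantile normalization the log2 fold change of PKM was -0.0079.

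LDHA, the lactate dehydrogenase subunit that prevails in glycolytic tissue, had the smallest difference of the 6 enzymes in the edgeR fit, though in limma on log2(RPKM + 0.5) PGK1 had a smaller one. LDHA had 1485, 987 and 859 RPKM in QQ replicates 1 to 3, against 1312, 1190 and 932 RPKM in WT replicates 1 to 3. The groups were interleaved, with QQ replicate 1 highest, QQ replicate 3 lowest and WT replicate 3 next to it. The means were 1110.5 ± 331 RPKM in QQ and 1145 ± 194 RPKM in WT embryos. The log2 fold change was -0.12 ± 0.22 (SE), with an edgeR adjusted p of 0.749 and an exact permutation p of 0.9, and it was -0.23 without WT replicate 3.

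**Figure D1:**
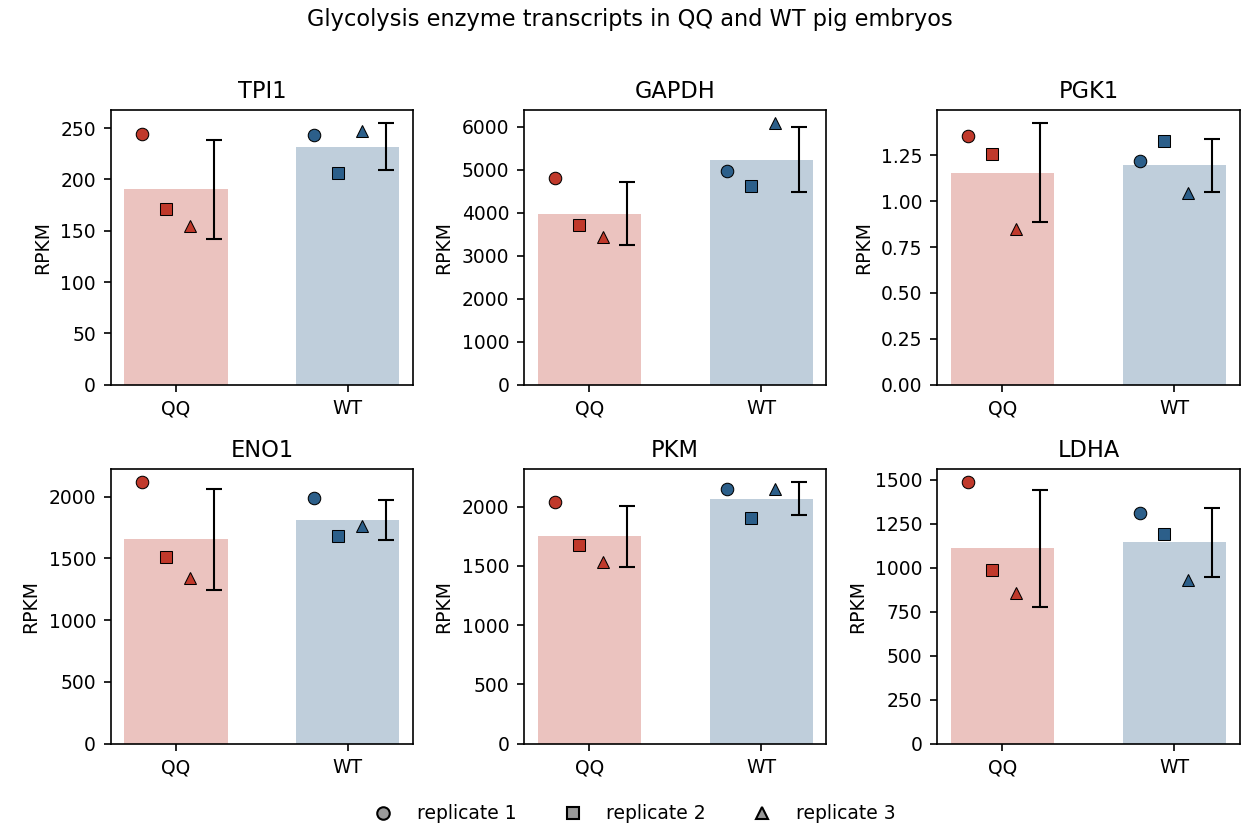
RPKM of the 6 glycolysis enzymes in each library, QQ left of WT in each panel. Points are embryos (marker shape gives the replicate number), bars are group means and error bars the SD over 3 embryos, with a vertical axis that starts at 0 and differs between panels. In TPI1, GAPDH, ENO1 and PKM, QQ replicates 2 and 3 lie below every WT library and QQ replicate 1 does not.

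By mean RPKM over the 6 libraries GAPDH (4606) stood first, followed by PKM (1907), ENO1 (1733), LDHA (1128), TPI1 (211) and PGK1 (1.18). In every library GAPDH was the highest, TPI1 the fifth and PGK1 the lowest. This order ranks the rows and not the genes, as length and coverage differ between them. The GAPDH row is a fragment of 534 bp, and 42.86% of the TPI1 row and 5.98% of the PGK1 row were covered. ENO1 exceeded PKM in QQ replicate 1, with a ratio of 1.04, and was below it in the other libraries, with ratios of 0.823 to 0.928. The difference between PKM and ENO1 was not tested. The rows of these enzymes together took 1.30%, 0.983% and 0.887% of all reads in QQ replicates 1 to 3, against 1.29%, 1.15% and 1.25% in WT replicates 1 to 3.

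The QQ embryos differed widely among themselves. After TMM scaling, each enzyme was expressed as its log2 CPM (read counts scaled to the library's total) minus its mean over the 6 libraries, and the mean over the enzymes was taken. This level was 0.24, -0.25 and -0.45 in QQ replicates 1 to 3, against 0.20, 0.07 and 0.18 in WT replicates 1 to 3. QQ replicate 1 was the highest of all libraries and QQ replicates 2 and 3 the lowest. All 6 enzymes lay above their mean in QQ replicate 1 and also in WT replicate 1, and all 6 lay below it in QQ replicate 3. In WT replicate 3 the enzymes diverged, with centred levels of 0.53 for GAPDH and -0.15 for LDHA. QQ replicates 2 and 3 lay below every WT library in 4 of the 6 enzymes, where 14.7% of all rows did. Setting QQ replicate 1 aside favours such a count, as it was the highest library in this level. With QQ replicate 1 kept, all QQ libraries lay below all WT libraries in 0 of the 6 enzymes. They did so in 9.07% of all rows, and in 146 of the 596 rows with at least 20000 reads. The 4 enzymes belong to those 596 rows, for which no share without QQ replicate 1 was computed. The enzymes are also not independent: Pearson's r between pairs of them ran from 0.499 (GAPDH and PGK1) to 0.992 (PKM and TPI1). Without QQ replicate 1 the median log2 fold change of the enzymes was -0.49, and edgeR still called 0 of them. Their log2 fold changes were then -0.64 for TPI1, -0.69 for GAPDH, -0.31 for PGK1, -0.48 for ENO1, -0.50 for PKM and -0.44 for LDHA, with adjusted p between 0.209 and 0.584. Leaving out QQ replicate 3 instead, the lowest library, gave a smaller median of -0.16, and leaving out WT replicate 3 one of -0.26.

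**Figure D2:**
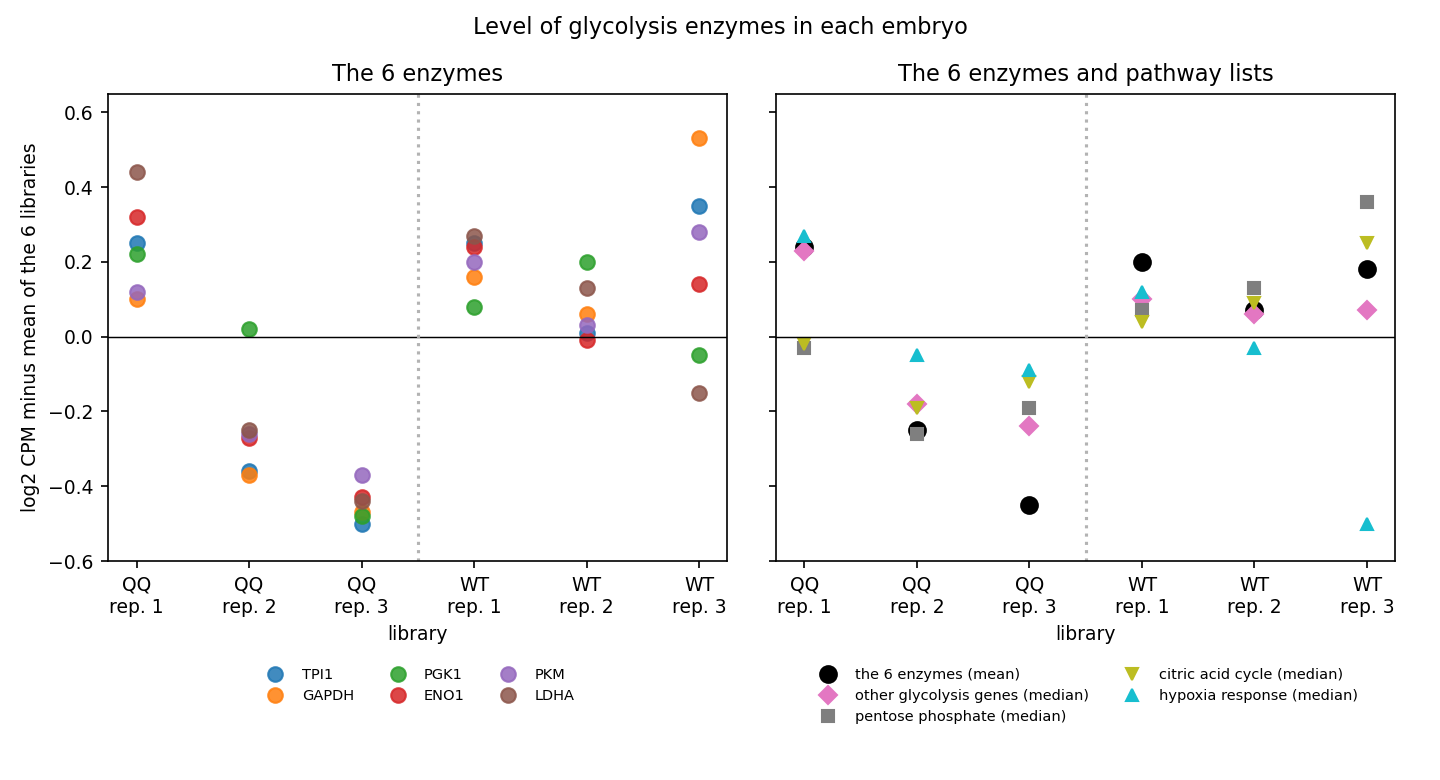
Level of the glycolysis enzymes in each library, as log2 CPM minus the mean of the 6 libraries (vertical axis), with QQ replicates left of WT replicates. The left panel shows each enzyme and the right panel their mean beside the median of 4 pathway lists. The 6 enzymes are all above 0 in QQ replicate 1 and WT replicate 1 and all below 0 in QQ replicate 3, and the hypoxia list is lowest in WT replicate 3, at -0.50.

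Ratios between enzymes were compared within libraries, where the depth of a library cancels. LDHA over GAPDH was 0.309, 0.266 and 0.251 in QQ replicates 1 to 3, against 0.264, 0.257 and 0.153 in WT replicates 1 to 3. WT replicate 3 was by far the lowest, and the other libraries overlapped. PKM over GAPDH was 0.424, 0.452 and 0.448 in QQ replicates 1 to 3, against 0.431, 0.411 and 0.353 in WT replicates 1 to 3. LDHB encodes the lactate dehydrogenase subunit that prevails in oxidative tissue such as heart. The ratio of LDHA over LDHB was 3.36, 2.44 and 2.52 in QQ replicates 1 to 3, against 3.04, 2.59 and 2.01 in WT replicates 1 to 3, so LDHA exceeded LDHB in all 6 embryos. Of 8 ratios compared, the exact two-sided permutation p ran from 0.2 to 0.9, and the Benjamini-Hochberg adjusted p from 0.686 to 0.9.

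The rest of the pathway showed the same sign in most genes and no call. Of 26 other glycolysis genes and paralogs, 23 had a row and 18 were tested. Lower values were found in 15 and higher values in 3, with a median log2 fold change of -0.13. The 3 with higher values, named after their values were seen, were ADPGK (0.14), PFKFB2 (0.37) and PFKFB3 (0.14), of which the PFKFB genes make and break down an activator of phosphofructokinase. edgeR and DESeq2 called 0 of the 18, against 0.0% and 0.795% of all rows. At an unadjusted edgeR p under 0.05 there were 0 of the 18, against 20.3% of all rows in either direction. Values were lower in QQ in 50.3% of all rows and in 71.1% of the 596 rows with at least 20000 reads (median -0.15). Without QQ replicate 1 the median of the 18 genes was -0.30.

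The first steps trap glucose in the cell and commit it to the pathway. Hexokinases HK1 and HK2 had log2 fold changes of -0.25 ± 0.19 and -0.10 ± 0.27 (SE), and without WT replicate 3 that of HK2 was -0.36. GPI, the phosphoglucose isomerase, had 422, 292 and 268 RPKM in QQ replicates 1 to 3, against 429, 353 and 371 RPKM in WT replicates 1 to 3. As in TPI1, GPI was lowest in QQ replicates 2 and 3, with a log2 fold change of -0.32 ± 0.19 (edgeR adjusted p = 0.338). The phosphofructokinases PFKL, PFKM and PFKP had log2 fold changes of -0.13, -0.14 and -0.12. PGAM1, the phosphoglycerate mutase between PGK1 and enolase, was the most abundant of the other glycolysis genes by reads and had a log2 fold change of -0.08 ± 0.13. The direction of HK2 and PGAM1 was higher in QQ in limma fits on log2(RPKM + 0.5), that of HK2, PGAM1 and PFKL after quantile normalization, and that of HK2 and PFKP when 1 library was left out.

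ALDOC, a paralog of ALDOA best known from brain, had 72.0, 41.9 and 39.4 RPKM in QQ replicates 1 to 3, against 61.6, 53.4 and 52.4 RPKM in WT replicates 1 to 3. QQ replicate 1 was the highest and QQ replicates 2 and 3 the lowest, and the log2 fold change was -0.21 ± 0.23 (edgeR adjusted p = 0.604). The paralogs of the other enzymes had lower mean values in QQ: GAPDHS, the sperm form of GAPDH, with a log2 fold change of -0.17 ± 0.27, ENO2, the neuronal enolase, with -0.29 ± 0.20, ENO3, the muscle enolase, with -0.35 ± 0.21 (-0.18 without WT replicate 3), and PKLR, the pyruvate kinase of liver and red cells, with -0.43 ± 0.54. GAPDHS rested on 155 reads and PKLR on 162, and PKLR was higher in QQ without QQ replicate 2. LDHB had 442, 405 and 341 RPKM in QQ replicates 1 to 3, against 432, 460 and 464 RPKM in WT replicates 1 to 3. Its values overlapped only between QQ replicate 1 and WT replicate 1, with a log2 fold change of -0.28 ± 0.13 (edgeR adjusted p = 0.258).

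**Figure D3:**
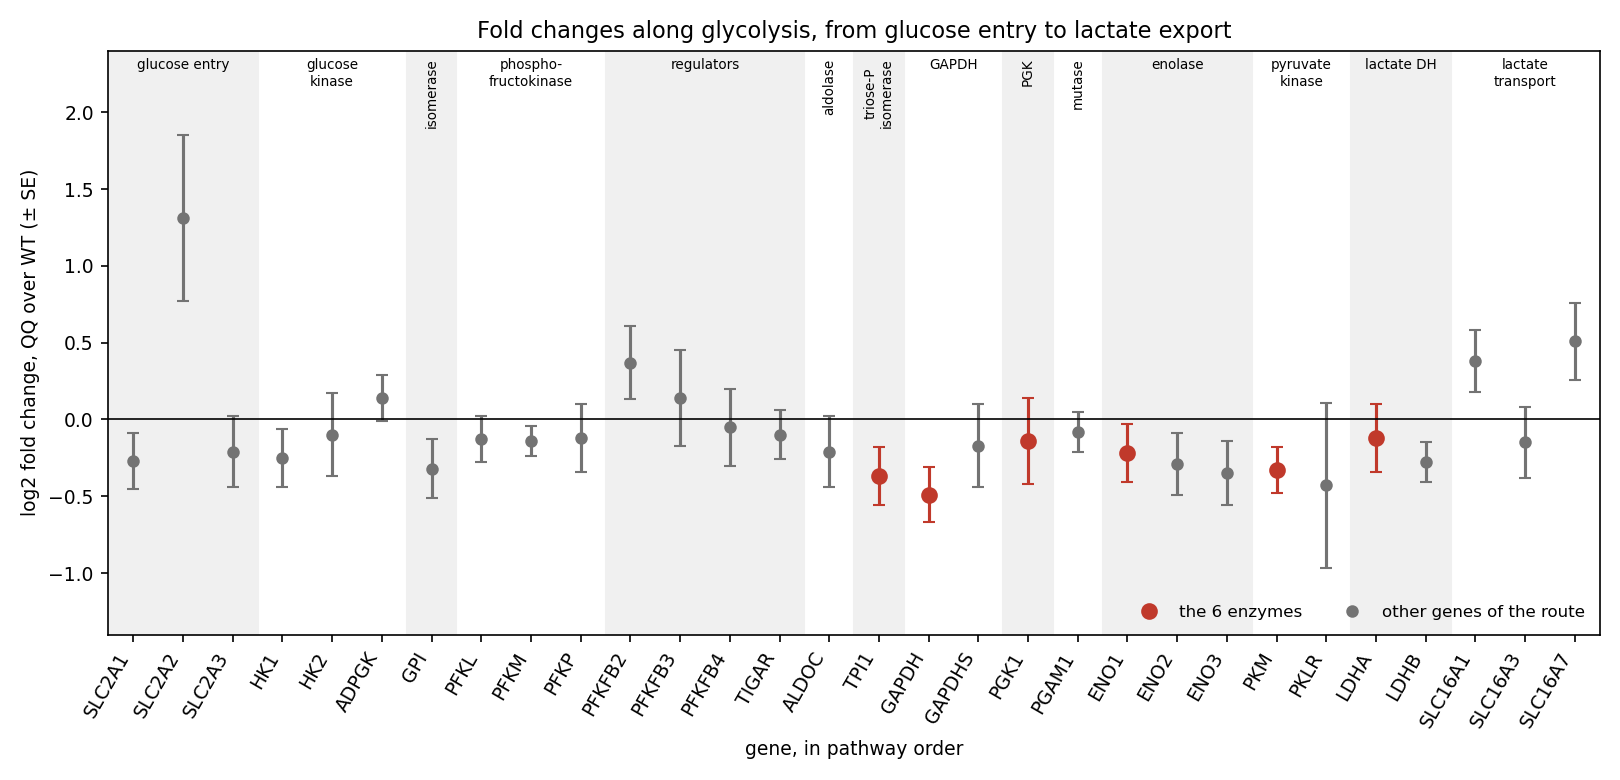
log2 fold change of QQ over WT (vertical axis) for genes in the order of the pathway, from glucose entry to lactate transport. Bars are the SE derived from the edgeR F statistic. Red points are the 6 enzymes and grey points other genes of the route. The enzymes lie between -0.49 (GAPDH) and -0.12 (LDHA), though LDHA, ENO1 and PGK1 lie above 0 in at least 1 other scaling or with 1 library left out. Points above 0 are SLC2A2, ADPGK, PFKFB2, PFKFB3, SLC16A1 and SLC16A7.

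Glucose enters through transporters of the SLC2A family, and lactate leaves through those of the SLC16A family. Of 8 transport genes 7 were tested, with 4 lower, 3 higher and a median log2 fold change of -0.15. SLC2A3, a high-affinity glucose transporter, had more reads than the other transport genes, with 958, 548 and 568 RPKM in QQ replicates 1 to 3, against 884, 751 and 637 RPKM in WT replicates 1 to 3. As in ENO1, QQ replicate 1 was highest and QQ replicates 2 and 3 lowest, though SLC2A3 was lowest in QQ replicate 2 and ENO1 in QQ replicate 3. The log2 fold change of SLC2A3 was -0.21 ± 0.23 (edgeR adjusted p = 0.6). SLC2A2, the glucose transporter of liver and pancreatic islets, had a log2 fold change of 1.31 ± 0.54 on 259 reads (edgeR adjusted p = 0.234). Of these reads 111 lay in QQ replicate 3, the library with the highest sum of hepatic and yolk sac markers (2106 CPM), and without it the log2 fold change was 0.56; the part of these tissues was not tested. SLC16A7, a carrier of lactate and pyruvate, had a log2 fold change of 0.51 ± 0.25 (edgeR adjusted p = 0.266), and of 0.29 without WT replicate 3. All QQ libraries lay above all WT libraries in 2 of the 7 genes, as they did in 18.8% of all rows.

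Downstream of pyruvate, the citric acid cycle and side branches of glycolysis had lower median values in QQ. Again 0 genes were called by edgeR or DESeq2 in any list, against 0.0% and 0.795% of all rows. In the pyruvate dehydrogenase list, 6 of 11 tested genes had lower values, with a median of -0.01. PDHA1, its catalytic subunit, had a log2 fold change of -0.25 ± 0.10 (edgeR adjusted p = 0.233), and PDK4, a kinase that switches the complex off, of 0.36 ± 0.16 (edgeR adjusted p = 0.249). In the citric acid cycle 15 of 16 tested genes had lower values, with a median of -0.23, and 6 of them an unadjusted p under 0.05, as 9.29% of all rows had in this direction. All QQ libraries lay below all WT libraries in 7 of these 16 genes and in 9.07% of all rows. Among rows with at least 20000 reads the count was 146 of 596. In SDHD, 1 of the 7, the groups were barely apart, with 142.21 RPKM in QQ replicate 2 and 142.23 RPKM in WT replicate 2. MDH2, the mitochondrial malate dehydrogenase, had 123, 120.3 and 123 RPKM in QQ replicates 1 to 3, against 136, 154 and 171 RPKM in WT replicates 1 to 3. The groups did not overlap in MDH2, with a log2 fold change of -0.43 ± 0.12 (edgeR adjusted p = 0.233, DESeq2 adjusted p = 0.101). SDHC, a subunit of succinate dehydrogenase, had a log2 fold change of -0.35 ± 0.11 (edgeR adjusted p = 0.233).

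The pentose phosphate pathway branches off above the enzymes described here and makes NADPH and ribose. Of its 6 tested genes 5 had lower values, all 5 with groups that did not overlap, and the median was -0.34. Of all rows 9.07% were lower in this way, and so were 146 of the 596 rows with at least 20000 reads. TKT, the transketolase that links this branch back to glycolysis, had 345, 315 and 323 RPKM in QQ replicates 1 to 3, against 371, 379.9 and 439 RPKM in WT replicates 1 to 3. Here QQ replicate 1 was close to the other QQ libraries, with a log2 fold change of -0.37 ± 0.13 (edgeR adjusted p = 0.233). PGD, which makes NADPH, and RPIA, the ribose-phosphate isomerase, each had a log2 fold change of -0.34 ± 0.11. Gluconeogenesis had lower values in 5 of 5 tested genes, with a median of -0.35. In it PCK2, the mitochondrial phosphoenolpyruvate carboxykinase, had a log2 fold change of -0.35 ± 0.12 and G6PC3, a glucose-6-phosphatase, of -0.46 ± 0.17 (-0.28 without WT replicate 3). The edgeR adjusted p was 0.233 for PGD, RPIA, PCK2 and G6PC3 alike. Without WT replicate 3 the medians were -0.19 for the citric acid cycle, -0.26 for the pentose phosphate pathway and -0.27 for gluconeogenesis.

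The hypoxia list, which holds regulators and targets of hypoxia-inducible factor other than the 6 enzymes, leaned slightly the other way. Some of its genes also stand in the glycolysis, transport and pyruvate dehydrogenase lists. Higher values were found in 13 and lower values in 8 of its 21 tested genes, with a median of 0.14. This median was 0.04 without WT replicate 3 and 0.02 without QQ replicate 1. The list's median centred level was 0.27, -0.05 and -0.09 in QQ replicates 1 to 3, against 0.12, -0.03 and -0.50 in WT replicates 1 to 3. QQ replicates 2 and 3 thus lay below WT replicates 1 and 2. HIF1A, the oxygen-regulated subunit of the factor, had 120, 149 and 152 RPKM in QQ replicates 1 to 3, against 99.6, 119 and 60.5 RPKM in WT replicates 1 to 3. The groups lay just apart, with WT replicate 3 far below the rest, and the log2 fold change was 0.50 ± 0.20 (edgeR adjusted p = 0.233), and 0.28 without that library. P4HA2, a collagen prolyl hydroxylase subunit, had a log2 fold change of -0.46 ± 0.17 (edgeR adjusted p = 0.233). BNIP3, a mitophagy receptor induced by hypoxia, had a log2 fold change of -0.30 ± 0.23 (edgeR adjusted p = 0.445). All QQ libraries lay above all WT libraries in 4 of the 21 genes, against the 18.8% of all rows given above.

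**Figure D4:**
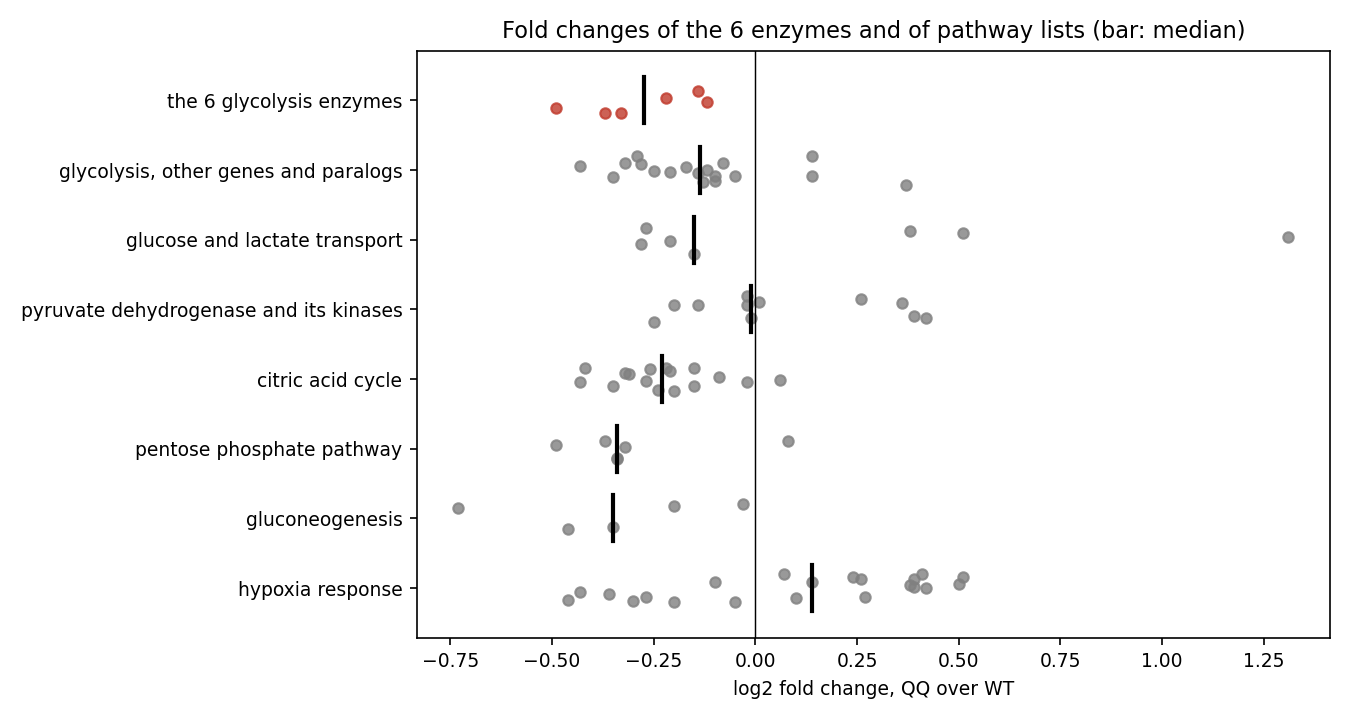
log2 fold change of QQ over WT (horizontal axis) for each tested gene of the 6 enzymes and of 7 pathway lists. Each point is a gene, and the black bar is the median of its list. Some genes of the hypoxia list are also shown in another list. Medians run from -0.35 (gluconeogenesis) to 0.14 (hypoxia response), with the 6 enzymes at -0.27, and no point passed the edgeR test.

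Markers of tissues that an embryo of this age can hold moved with some of these values. In the skeletal muscle list, 7 of 9 tested markers had lower values in QQ (median log2 fold change -0.44, and -0.28 without WT replicate 3). Their summed level was 253, 219 and 195 CPM in QQ replicates 1 to 3, against 252, 262 and 306 CPM in WT replicates 1 to 3. As in TPI1, GAPDH, ENO1 and PKM, QQ replicates 2 and 3 lay below every WT library. DES held 13386 reads over the 6 libraries, TNNI1 3145 and ACTA1 2002, so DES weighs most in this sum. The tissue that the reads of these genes come from was not tested, so the sum cannot be tied to skeletal muscle alone. The other tested markers of the list held only 68 to 158 reads each. MYOD1, which defines the muscle lineage, had 4 reads over the 6 libraries. Heart markers were lower in 6 of 7, with sums of 781 to 917 CPM in QQ and 813 to 1117 CPM in WT libraries. WT replicate 3 alone stood above the QQ range, and the median log2 fold change of the heart markers was -0.38 with it and -0.07 without it. Erythroid markers were lower in 8 of 8 (median log2 fold change -0.82). Their sums were 516, 59.9 and 657 CPM in QQ replicates 1 to 3, against 1335, 411 and 578 CPM in WT replicates 1 to 3. QQ replicate 2 was thus the lowest and WT replicate 1 the highest, and the other libraries overlapped. Hepatic and yolk sac markers were higher in 7 of 9, though their median log2 fold change was only 0.08, and 0.59 without WT replicate 3. Their sums were 768, 278 and 2106 CPM in QQ replicates 1 to 3, against 958, 366 and 1397 CPM in WT replicates 1 to 3. Neural tube markers were lower in 4 of 6, with sums of 89.3 to 108 CPM in QQ and 90.9 to 101 CPM in WT libraries. edgeR called 0 of the markers and 0.0% of all rows. The part of these tissues in the values of the glycolysis enzymes was not tested.

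Rows with a symbol, other than the enzymes, were ranked by Pearson's r over the 6 libraries between their log2 CPM and the mean level of the enzymes. MYOG (r = 0.993), the myogenic factor myogenin, stood first on only 78 reads, followed by FAM162A (0.992), a mitochondrial protein, DPYSL3 (0.991), a cytoskeletal protein of growing neurites, C1QL4 (0.986), a secreted C1q-like protein, and PALMD (0.986), palmdelphin. In all, 8 of the 13957 rows tested reached the r of PALMD: these 5 and 3 rows without a symbol. The points share their libraries and depths, and the ranking is a description.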

How the data were processed

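Total RNA of 3 QQ and 3 WT embryos was made into TruSeq libraries, per the labels' protocols, and the build named in the submitters' processing notes is Sscrofa10.2. Aligner, counting program and use of strand: not given in the sources used here. Per the file headers, the deposited table holds uniquely mapped read counts (a dash read as 0), the percent of each transcript covered, and RPKM; RPKM recomputed from the deposited counts, lengths and totals differs by a relative gap of at most 1.29e-07. A floor of 3 reads corresponds to 0.222 to 0.246 CPM and covers counting error only. All pairs of libraries differed by more than sampling noise (lowest chi-square per degree of freedom 8.06).

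Counts were tested with edgeR 4.0.16 (R 4.3.3; TMM factors 0.933 to 1.06; expression filter with minimum count 10 and minimum total 15; quasi-likelihood without robust estimation), with Benjamini-Hochberg adjustment over 13957 rows and a threshold of 0.05. Alternatives were DESeq2 1.42.0, limma 3.58.1 on log2(RPKM + pseudocount) with pseudocounts of 0.1, 0.5 and 1, other scalings and filters, a replicate block and leaving out each library. All groups entered one fit without covariates, and tests were checked on simulated counts. Exact permutations used log2(RPKM + 0.5). Each SE is the absolute log2 fold change divided by the square root of the edgeR F statistic.

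Symbols were given to 9536 rows, through the deposited protein accession (7185), KEGG gene (2287) or description (64), with gene tables of Sscrofa11.1 used for names only. The enzymes, gene lists and named-gene rule were chosen with earlier results of these data known. Named are the enzymes, their tested paralogs, the hexokinases, phosphofructokinases, GPI and PGAM1, from each pathway list the 2 genes with the smallest p and the one with the most reads, and the 5 rows with a symbol most like the enzymes. MYOD1, DES, TNNI1, ACTA1, VRTN, ADPGK, PFKFB2, PFKFB3 and SDHD are named outside this rule. Some genes of the rule and lists are not reported here and are left out of the list counts. Figures used matplotlib 3.10.9.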

Additional observations from a re-analysis of the deposited data

How the results depend on the processing

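In every setting tried, with edgeR, limma or DESeq2, 0 of the 6 enzymes and 0 genes of the other pathway lists were called. Over all rows, DESeq2 called 111 (103 higher and 8 lower in QQ), and leaving out 1 library gave 0 to 3 calls (3 without QQ replicate 1 and 1 without WT replicate 3). Rows with an unadjusted p under 0.05 numbered 1540 higher and 1297 lower in edgeR, and 2099 higher and 640 lower in limma on log2(RPKM + 0.5). The median of the enzymes stayed below 0, from -0.49 without QQ replicate 1 to -0.095 after quantile normalization; settings on the row of PGK1 (-0.35 to -0.30) and robust estimation were added after seeing the data. Leaving out 1 library moved the median between -0.49 and -0.16.

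Values of single genes changed sign in 16 recomputations and kept their direction and side of the threshold in 639; the cause was not tested. After quantile normalization the log2 fold changes were 0.10 for LDHA, 0.091 for ENO1, 0.11 for PGAM1, 0.032 for HK2 and 0.0088 for PFKL. In limma with pseudocounts of 0.5, 0.1 and 1 they were 0.0093 in each for PGAM1, and 0.057, 0.058 and 0.056 for HK2. Leaving out 1 library gave ranges of -0.44 to 0.04 for LDHA, -0.31 to 0.047 for PGK1, -1.1 to 0.036 for PKLR, -0.36 to 0.24 for HK2 and -0.30 to 0.064 for PFKP. PGK1 fell below the stricter filter of a mean of at least 2 RPKM and had no value there.

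The replicate numbers gave no steady sign of pairing. Same-numbered deviations correlated at -0.191, 0.213 and -0.0558, where the highest value with another number was 0.221, 0.00894 and 0.184. With 3 libraries a group these values cannot settle whether the embryos were paired. With the replicate block edgeR called 0 rows, and the median of the enzymes was -0.30. Precision is limited for PGK1, GAPDHS and PKLR, which held 149, 155 and 162 reads, and fold changes of the size seen here rest on 3 embryos a group.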
